A study of Homo sapiens with 4 samples.

Results

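The 7 simple epithelial keratins examined here were KRT7, KRT8, KRT80, KRT18, KRT19, KRT20 and KRT23, among 19482 genes that could be named on the array. Every probe whose accession belongs to one of these genes was taken, which gave 10 probes with 1 spot each. Of these, 9 probes of 6 genes gave a signal well above background on all 4 arrays, and the probe of KRT20 did so on none. Expression was measured in HuCCT1, a human intrahepatic cholangiocarcinoma cell line that arose from bile duct epithelium. Cells received 30 nM Pre-miR-376c, 30 nM Pre-miR negative control (labelled miControl), 30 nM siGRB2 or 30 nM siRNA negative control (labelled siControl) with a lipid reagent. In all 4 conditions the cells were given 5 ng/ml EGF 24 h after transfection and were kept with it for 24 h in medium containing 0.1% serum. From each transfection 200 ng of RNA went onto 1 single-colour array, and all 4 arrays shared 1 slide and 1 scan. There was therefore no replicate of a condition, no p-value is given, and no difference described here can be set against the spread between cultures. In such bulk RNA fewer cells of a kind and less transcript per cell cannot be told apart.

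Keratins are intermediate filament proteins of epithelial cells, and a filament is built from pairs of a type II keratin with a type I keratin. In single-layered epithelia KRT8 and KRT18 form the basic pair, and KRT7 and KRT19 are added to it in bile ducts, which pathologists use to tell cholangiocytes and their tumours from hepatocytes. KRT20 is a keratin of the intestinal epithelium, KRT23 is a type I keratin found in several glandular tumours, and KRT80 is a type II keratin that occurs in both simple and stratified epithelia. GRB2, the target of the siRNA, is an adaptor that links the activated EGF receptor to the RAS pathway. The question of the design was how a microRNA and the loss of this adaptor alter transcript levels in cells exposed to EGF.

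The agent that sets the first pair of arrays apart is shown for its seed, the stretch through which a microRNA pairs with transcripts (bases 2 to 8, in capitals). The sequence is that of RefSeq for the 3′ arm, at chr14:101039732-101039752 on the plus strand of GRCh38.p14. No target site was searched for in the keratin transcripts.
hsa-miR-376c-3p: aACAUAGAggaaauuccacgu

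Levels are given as log2 of the processed signal relative to the 75th percentile of the same array, so a level of 0 is the 75th percentile and a step of 1 is a 2-fold step. Each probe was followed across the 4 arrays, and levels of different probes were not ranked against each other, since probes bind with unequal strength. The error given with a difference is that of the scanner software, about 0.20 on the log2 scale for bright spots, and it leaves out variation between cultures and between arrays. KRT7, KRT19, KRT8 and KRT18, the markers of biliary and general epithelium among the members, were well above background in every condition, together with EPCAM, CDH1 and SOX9. Of the 8 biliary markers only SPP1 was above background on no array. The hepatocyte transcripts ALB, TTR and HNF4A were above background on none either, while 2 of the 5 hepatocyte markers, APOA1 and SERPINA1, were measured on all 4. Of the 5 fibroblast markers, COL1A2, COL3A1 and DCN were above background on no array, and COL1A1 and LUM were on all 4, as were 2 of 3 endothelial, 3 of 4 leukocyte and 2 of 3 enterocyte markers. GRB2 itself was lowest on the siGRB2 array, at -0.65, and stood at 0.07 with Pre-miR-376c, 0.62 in its negative control and -0.10 in the siRNA negative control. Its difference from the own control was -0.55 ± 0.20 (scanner error) in both treatments. With Pre-miR-376c GRB2 lay above the siRNA negative control, so the sign of that difference depends on the control array. With siGRB2 it lay below both controls, at -1.27 against Pre-miR negative control.

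Among the type II keratins, KRT7 had a level of 7.65 with Pre-miR negative control, 8.06 with Pre-miR-376c, 8.01 with siRNA negative control and 8.09 with siGRB2. In these scaled levels the Pre-miR negative control array was the low one, and the other 3 lay within 0.08 of each other. KRT7 was thus 0.40 ± 0.20 (scanner error) higher with Pre-miR-376c than with its control, 132% of it, and 0.08 ± 0.20 higher with siGRB2 than with siRNA negative control. Before scaling, the processed signals were 541786, 550402, 442456 and 543153 in the order given above, with siRNA negative control lowest. The spot read between 46.5% and 59.0% of the scanner's saturation value.

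KRT8, the type II partner of KRT18, was read by 2 probes. The first (A_23_P14072) had a level of 5.37 with Pre-miR negative control, 5.77 with Pre-miR-376c, 5.78 with siRNA negative control and 5.70 with siGRB2, with the Pre-miR negative control again lowest. Its processed signals before scaling were 111063, 113051, 94282 and 104034 in the same order, with siRNA negative control lowest. The second (A_24_P67395) had a level of 0.09 with Pre-miR negative control, 0.28 with Pre-miR-376c, -0.46 with siRNA negative control and 0.35 with siGRB2, so that here the siRNA negative control stood lowest. Both probes were higher with Pre-miR-376c than with its control, by 0.41 and 0.20. Against siRNA negative control they parted: with siGRB2 the first was at -0.07 and the second at 0.81, a gap of 0.89 where the scanner error of the gap was 0.29. Between the 2 negative controls the gap was 0.96. A difference in KRT8 that uses the siRNA negative control array therefore depends on the probe read.

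KRT80 had a level of 2.81 with Pre-miR negative control, 3.42 with Pre-miR-376c, 3.12 with siRNA negative control and 3.64 with siGRB2. Both treated arrays lay above both control arrays. KRT80 was 0.60 ± 0.20 higher with Pre-miR-376c and 0.52 ± 0.20 higher with siGRB2, each against its own control, or 152% and 143% of the control signal. These were the largest difference above 0 among the keratin probes in the first comparison and the second largest in the other, after KRT8 A_24_P67395, and neither reached 2-fold.

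Among the type I keratins, the first KRT18 probe (A_24_P42136) had a level of 6.33 with Pre-miR negative control, 6.53 with Pre-miR-376c, 6.23 with siRNA negative control and 6.44 with siGRB2. The second (A_32_P151544) had a level of 7.06, 7.50, 7.40 and 7.40 in the same order. The arrays spanned 0.30 for the first probe and 0.44 for the second. With Pre-miR-376c the probes were 0.20 and 0.44 higher than with its control, and with siGRB2 they were 0.20 and 0.0027 higher, so no KRT18 difference from an own control went beyond 0.44.

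KRT19, the type I keratin that marks bile duct cells, had a level of 7.98 with Pre-miR negative control, 8.25 with Pre-miR-376c, 8.49 with siRNA negative control and 8.32 with siGRB2. The siRNA negative control array was the high one and the Pre-miR negative control array the low one, so both treated arrays lay between the controls. In processed signal before scaling the order was reversed, with Pre-miR negative control highest (679588) and siRNA negative control lowest (616169). KRT19 was 0.27 ± 0.20 higher with Pre-miR-376c and -0.16 ± 0.20 with siGRB2, each against its own control, while the controls themselves were 0.50 apart. Its spot read 63.4% to 70.0% of the saturation value and was not flagged as saturated. KRT20, the intestinal keratin, gave a processed signal of 29.2 with Pre-miR negative control, 16.2 with Pre-miR-376c, 15.6 with siRNA negative control and 22.1 with siGRB2. None of these was well above background, so no fold is given. The lowest signal of a probe well above background was 21.2 to 24.4 on the 4 arrays.

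KRT23 was the only one of the 7 genes with a probe past 2-fold in any comparison. Its first probe (A_23_P78248) had a level of -2.15 with Pre-miR negative control, -3.30 with Pre-miR-376c, -2.89 with siRNA negative control and -2.98 with siGRB2. The second (A_33_P3299761) had a level of -4.17, -5.42, -5.59 and -5.20 in the same order. For both probes the Pre-miR negative control was the high array, and the other 3 spanned 0.40 and 0.39. The processed signals were 607, 210, 231 and 253 for the first probe and 149, 48.3, 35.6 and 54.2 for the second, so the second was read close to the lowest detected signals. With Pre-miR-376c the first probe was at -1.15 ± 0.21 and the second at -1.25 ± 0.29 (scanner error), 45.1% and 42.2% of the control signal, and the 2 probes differed from each other by 0.10. With normexp background correction, which compresses low signals, they were at -0.95 and -0.45, and neither was past 2-fold. With siGRB2 they were at -0.08 ± 0.21 and 0.39 ± 0.35.

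With Pre-miR-376c against its own control, 2 of the 9 keratin probes were at least 2-fold apart, both of KRT23 and both lower. Of the 24406 probes in that comparison 3.04% were past the same limit in either direction and 1.47% in the lower one. The 2 probes read 1 gene, so they count as 1 member. The median of the keratin probes was 0.27, with 7 above 0 and 2 below, against a median of -0.03 for all probes, of which 10314 were above 0 and 11921 below. The keratins other than KRT23 ran from 0.20 to 0.60. With siGRB2 against siRNA negative control 0 of the 9 were past 2-fold, where 9.81% of all probes were, and the keratin median was 0.08 against 0.15 for all probes (-0.20 against -0.13 after a median shift, so the sign rests on the scaling). The keratin probes ran from -0.16 for KRT19 to 0.81 for KRT8 A_24_P67395.

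The 2 negative controls differed in the keratins as well. Between them 1 of the 9 probes was past 2-fold, KRT23 A_33_P3299761 at -1.42 ± 0.32 in the siRNA negative control, against 9.16% of all probes. The other KRT23 probe was at -0.75 ± 0.21. KRT19 was 0.50, KRT8 A_23_P14072 0.41, KRT7 0.35, KRT18 A_32_P151544 0.34 and KRT80 0.31 higher in the siRNA negative control. The second probe of KRT8 was at -0.55 and the other probe of KRT18 at -0.10, so that 5 probes were above 0 and 4 below, with a median over the 9 probes of 0.31 (-0.045 after quantile normalization) and of -0.10 over all probes.

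With the controls exchanged, most keratin differences had another size. Against siRNA negative control, Pre-miR-376c had 0 of 9 keratin probes past 2-fold, with 7.26% of all probes past it. The KRT23 probes were then at -0.40 ± 0.21 and 0.17 ± 0.37, the second with the opposite sign, and KRT19 was at -0.23 where it had been 0.27. KRT7, at 0.05, and KRT8 A_23_P14072, at -0.0024, differed by less than the scanner error. Against Pre-miR negative control, siGRB2 had 1 of 9 probes past 2-fold, KRT23 A_33_P3299761 at -1.03 ± 0.27, with 2.94% of all probes past it. The other KRT23 probe was at -0.83 ± 0.21. KRT80 was 0.83, KRT7 0.43 and KRT19 0.34 higher. In these scaled levels the KRT80 probe was the only one of the 9 to lie above both controls by more than the scanner error in both treatments, at 0.29 to 0.83. That distinction is narrow. KRT8 A_24_P67395 came short of it only with Pre-miR-376c against its own control, at 0.1967 where the scanner error was 0.2041. KRT7 and both KRT18 probes also lay above both controls in both treatments, each by less than the error in at least 1 comparison. The distinction of KRT80 rests on the scaling as well. After a median shift KRT80 was 0.72 higher with Pre-miR-376c and 0.58 higher with siRNA negative control, each against Pre-miR negative control. These values lay closer to each other than the scanner error of 0.20.

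**Figure D1:**
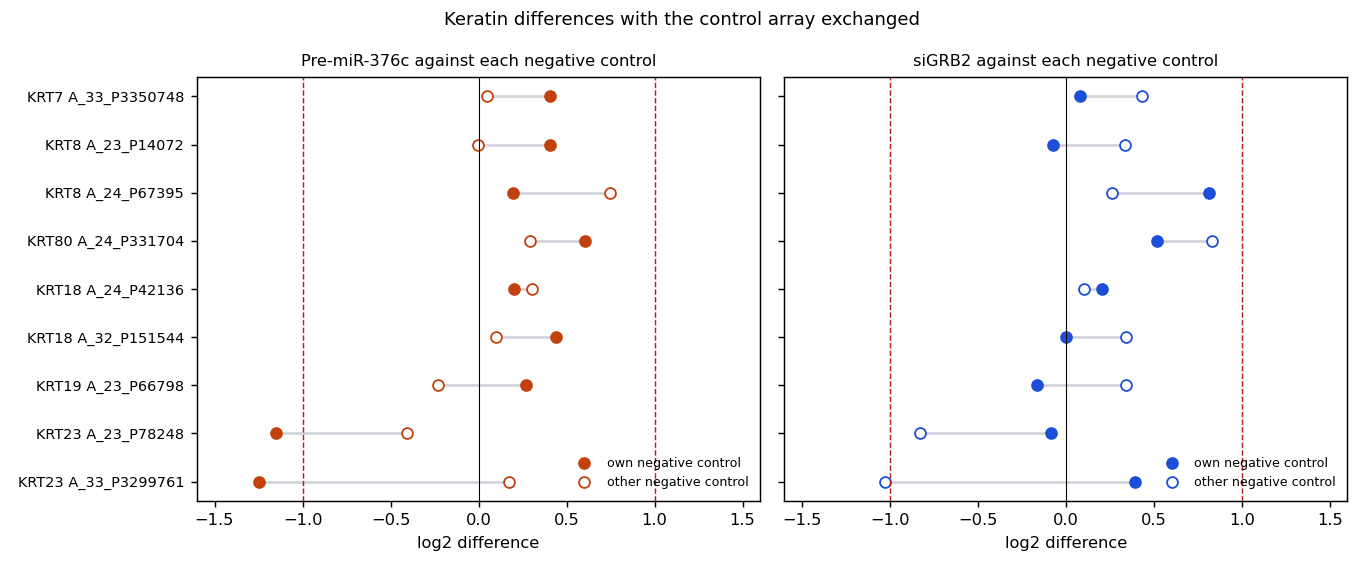
Log2 difference (horizontal axis) of each keratin probe (rows) for Pre-miR-376c (left) and siGRB2 (right), against the own negative control (filled) and the other negative control (open); dashed lines mark 2-fold. KRT7, KRT8 A_24_P67395, KRT80 and both KRT18 probes stay above 0 with either control, all but KRT80 in part by less than the scanner error. KRT23 A_33_P3299761 moves from -1.25 to 0.17 for Pre-miR-376c and from 0.39 to -1.03 for siGRB2.

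Set directly against each other, the 2 treated arrays were close for these genes. With siGRB2 against Pre-miR-376c 0 of 9 keratin probes were past 2-fold, with 2.89% of all probes past it, and the keratin differences ran from -0.10 for KRT18 to 0.32 for KRT23 A_23_P78248. Only that probe, at 0.32 ± 0.21, and KRT80, at 0.23 ± 0.20, differed by more than the scanner error. The 6 comparisons share arrays and are not independent of each other.

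The array on which most bright keratin probes were lowest was the lowest for many other bright probes as well. Of the 6 keratin probes with a mean level of at least 2, 5 were lowest with Pre-miR negative control (KRT7, KRT8, KRT80, KRT18 and KRT19), the exception being KRT18 A_24_P42136. Among all 3285 probes with a mean level of at least 2, 29.7% were lowest on that array, and among the 308 with a mean level of at least 6 it was 63.0%. The highest array was not shared in this way: it was siRNA negative control for 2 of the 6 keratin probes, Pre-miR-376c for 2 and siGRB2 for 2, while siRNA negative control was highest for 46.4% of the 308. In those 308 probes the median difference of Pre-miR-376c from its control was 0.15, and 82.8% were above 0. The 4 keratin probes of that brightness (KRT7, both of KRT18 and KRT19) were at 0.40, 0.20, 0.44 and 0.27 in this comparison, where the 5th to 95th percentile ran from -0.13 to 0.44. In the 2124 probes with a mean level of 2 to 4, the band in which KRT80 lay, the median was 0.015 and the 95th percentile 0.42, below the 0.60 of KRT80. In the 853 probes at 4 to 6, where KRT8 A_23_P14072 lay, the 95th percentile was 0.34, below its 0.41. Which array was lowest also rests on the scaling. Before the shift to the 75th percentile, the processed signals of the 5 keratin probes named above were lowest with siRNA negative control. That array had the lowest 75th percentile (1719), and Pre-miR negative control the highest (2689). The part of spot brightness or of the scaling in the keratin differences was not tested. The spots of KRT7 and KRT19 each held the same brightness rank on all 4 arrays, so that quantile normalization, which gives equal ranks equal values, set their differences to 0.00 in the 3 comparisons with an own control or between controls.

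KRT23 lay at the other end of the range. Among the 4740 probes with a mean level of -4 to -2, which include its first probe, the 5th percentile of the Pre-miR-376c difference was -0.69 and 1.88% were past 2-fold. Among the 3960 below -4, which include its second, it was -0.80 and 3.59% were past 2-fold. Both KRT23 differences, -1.15 and -1.25, were lower than the 5th percentile of probes of like brightness. Against siRNA negative control the 5th percentiles of the same bands were -0.81 and -0.86, and both KRT23 values, -0.40 and 0.17, lay above them.

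The keratins of basal and stressed epithelium were taken for comparison, and their highest differences came with siGRB2. Of 8 such genes, 4 were measured on all arrays, and KRT5, KRT6A, KRT6B and KRT6C, each with 1 probe, were above background on none. KRT14, the basal type I keratin, had a level of -2.23 with Pre-miR negative control, -3.99 with Pre-miR-376c, -3.57 with siRNA negative control and -0.75 with siGRB2. KRT17, a keratin of stressed and regenerating epithelium, had -1.87, -3.38, -2.74 and -0.35 in the same order. With siGRB2, KRT14 was 2.82, KRT17 2.39 and KRT16 1.88 higher than with siRNA negative control, and against the other negative control 1.47, 1.52 and 1.22. KRT15 was at -0.03 in both. The keratin probes of simple epithelium with siGRB2 ran from -0.16 to 0.81 against siRNA negative control and from -1.03 to 0.83 against the other. With Pre-miR-376c against its own control, KRT14 was at -1.76 and KRT17 at -1.51, lower as KRT23 was. Like KRT23, they were lower in the siRNA negative control than in the Pre-miR negative control, at -1.35 for KRT14 and -0.87 for KRT17. With Pre-miR-376c against siRNA negative control they were at -0.42 and -0.64. Unlike KRT23, they were highest on the siGRB2 array. With 1 array a condition the difference between the groups of keratins was not tested.

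Of 20 measured probes for proteins that anchor or organise keratin filaments, 0 were past 2-fold with Pre-miR-376c, where 3.04% of all probes were, and 3 were with siGRB2, where 9.81% were. The latter were the desmosomal plaque genes PKP2, at -1.62, and JUP, at 1.19, and 1 of the 2 probes of the small heat shock protein HSPB1, at 1.34. In each of these the siRNA negative control was the extreme array, highest for PKP2 and lowest for JUP and HSPB1. Set against the other negative control, siGRB2 left them at -0.40, 0.22 and 0.57. The other HSPB1 probe, which was brighter, was at 0.98 with siGRB2 against siRNA negative control and at 0.91 against Pre-miR negative control. For that probe the controls differed by -0.07. Between the controls PPL, at -1.03, PKP2, at 1.22, and PLEC A_33_P3419098, at -1.41, were past 2-fold. So was 1 of the 2 probes of YWHAZ, at -1.17, while the other was at 0.03. The other PLEC probe was at -0.02 there, and 9.16% of all probes were past 2-fold between the controls. DSP, which ties keratins to desmosomes, was at -0.11 and 0.07 with Pre-miR-376c and at -0.31 and 0.32 with siGRB2 by its 2 probes. PLEC, a linker of filaments to hemidesmosomes, was at -0.07 and -0.76 with Pre-miR-376c and at -0.22 and 0.70 with siGRB2.

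Among other intermediate filament proteins, VIM, the filament protein of mesenchymal cells that many tumour lines also make, had a level of 5.86 with Pre-miR negative control, 5.45 with Pre-miR-376c, 6.24 with siRNA negative control and 5.42 with siGRB2. Both treated arrays lay below both controls, at -0.41 with Pre-miR-376c and -0.82 with siGRB2 against the own control, whereas for KRT80 both treated arrays lay above. Of the 12 probes of this list 1 was past 2-fold with Pre-miR-376c (NES, at -1.11) and 1 with siGRB2 (the other NES probe, at 1.23), beside 3.04% and 9.81% of all probes. That second NES probe was at -1.67 between the controls and, with siGRB2, at -0.44 against Pre-miR negative control, the opposite sign. Of 20 measured probes of epithelial transcription regulators, 1 of the 2 ZEB1 probes was past 2-fold with Pre-miR-376c, at -1.29, beside 3.04% of all probes. Against siRNA negative control that probe was at -0.85, not past 2-fold. Its processed signal with Pre-miR-376c was 43.5, where the lowest detected signal was 24.4. The other ZEB1 probe was at -0.59 with Pre-miR-376c against its own control. ZEB1 is a repressor of epithelial genes. With siGRB2 the epithelial factor EHF was at -1.52 and 1 of the 2 probes of GRHL2 at 1.01, beside 9.81% of all probes past 2-fold. Against Pre-miR negative control these were at -0.86 and -0.05, neither past 2-fold. The processed signal of that GRHL2 probe with siRNA negative control was 35.4, where the lowest detected signal was 21.5. The other GRHL2 probe was at 0.29 with siGRB2 against siRNA negative control and at 0.24 against Pre-miR negative control. CDX2, an intestinal regulator that was at -1.02 with Pre-miR-376c against siRNA negative control, was above background on all 4 arrays with KRT20 on none.

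The members lie in the keratin gene clusters of chromosome 12 (KRT7, KRT8, KRT80 and KRT18) and chromosome 17 (KRT19, KRT20 and KRT23). KRT80 is the neighbour of KRT7, KRT8 overlaps its neighbour KRT18, and KRT20 is the neighbour of KRT23 in the RefSeq annotation. KRT7 and KRT80 both had their lowest level with Pre-miR negative control, and KRT80 rose from there through siRNA negative control and Pre-miR-376c to siGRB2. For KRT7 the order of the other arrays was not resolved, as they differed by less than the scanner error of 0.20. Its level with Pre-miR-376c lay 0.05 above siRNA negative control, and that with siGRB2 0.03 above Pre-miR-376c. The differences with siGRB2 from its control were 0.08 for KRT7 and 0.52 for KRT80. KRT8 A_23_P14072 and KRT18 A_32_P151544 were close in size, at 0.41 and 0.44 with Pre-miR-376c and at 0.41 and 0.34 between the controls. The other probes, KRT8 A_24_P67395 and KRT18 A_24_P42136, were at 0.20 and 0.20 with Pre-miR-376c and at -0.55 and -0.10 between the controls. Likeness of the 2 genes therefore depends on the probes read. KRT23 was measured on all arrays and its neighbour KRT20 on none. KRT8 and KRT18 have many processed copies in the genome (52 and 68 pseudogenes in the RefSeq table, and 5 for KRT19), and probes of these genes may also bind transcripts of such copies. A probe assigned to KRT18P55 ran from 5.86 with siRNA negative control to 6.21 with Pre-miR-376c, the lowest and highest arrays also for KRT18 A_24_P42136. A KRT19P2 probe was lowest with siRNA negative control, at 5.06, where KRT19 was highest, and a KRT8P41 probe was lowest there too, at -6.17. The signals of KRT8, KRT18 and KRT19 are uncertain to that extent.

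The genes whose 4 levels, each centred on its own mean, were nearest to a keratin's were found among about 17437 probes of other genes. For KRT23 (A_33_P3299761), whose range over the arrays was 1.42, they were SELPLG, TMEM51-AS1 and LRRC30, with root mean square differences of 0.02, 0.04 and 0.08. For KRT80 (range 0.83) they were UNCX, LYPD1 and RARRES2, at 0.02, 0.04 and 0.05. For KRT8 A_24_P67395 (range 0.81) they were SIGLEC14, IL9R and SH3GL1, and for KRT19 (range 0.50) CKLF, PJA2 and TTC39A. With 4 values a probe, near matches among so many probes are a description of these arrays only.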

How the data were processed

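Gene expression in EGF-treated HuCCT1 cells was measured after 4 transfections, 1 array each, on a 44 K human design. The authors deposited, per array, the spot intensity values of Agilent Feature Extraction 10.7 (10.7.3.1 in the file headers), with the processed intensity, its error and flags for background, saturation and outliers, and also a table of log2 values per probe shifted to the 75th percentile. That deposited log2 table equalled the levels used here up to a constant per array, within 0.01 for 99.95% to 99.96% of probes.

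Log2 processed intensities were shifted to the array's 75th percentile over 43118 spots (34127 probes). Spots flagged as outliers (289 to 329 per array) were removed, and replicate spots of a probe were averaged. The 75th percentile signal was 2689, 2065, 1719 and 1995 for miControl, miR-376c, siControl and siGRB2. A probe was detected when well above background on over 0.5 of its spots, and entered a comparison when detected on 1 of its arrays. Undetected signals gave bounds. Depth does not apply to arrays, and their number limits the precision. Names came from accessions through RefSeq (GRCh38.p14, names only, the design being of another build) for 25422 probes (74.5%).

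The members and lists were chosen with earlier results of these data known. The genes named were the members, GRB2, the basal and stress keratins, those of 3 further lists past 2-fold on measured signals, PLEC, DSP and VIM, and the 3 nearest probes by likeness to each keratin's widest-range probe where that range was over 0.5. Cell type markers named come from a separate list. Python 3.11.15, numpy 2.4.6, pandas 2.3.3, R 4.3.3 and limma 3.58.1 were used. The calling step was tested on simulated data. Alternatives were a median shift, quantile normalization, the percentile over detected probes, normexp, the deposited values, inclusion of flagged spots, stricter detection, gene means, other fold limits and the other negative control.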

Additional observations from a re-analysis of the deposited data

How the results depend on the processing

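With Pre-miR-376c against its own control, the 2 keratin probes past 2-fold became 1 with the mean per gene and 0 with normexp background correction, with the siRNA negative control or with a 3-fold limit. With siGRB2, the count of 0 became 5 with normexp and 1 with the other negative control or a 1.5-fold limit. Between the controls, the count of 1 became 0 with normexp or a 3-fold limit and 2 with a 1.5-fold limit. The median of the keratin probes with siGRB2, 0.08, was -0.20 after a median shift, -0.85 with normexp and 0.34 with the other control. Between the controls, 0.31 became 0.58 after a median shift and -0.045 after quantile normalization. KRT23 A_33_P3299761 went from -1.25 to 0.17 with Pre-miR-376c when set against the other control. The cause was not tested, except where a limit or a control array was itself the change. The median shift moved the median of all probes from 0.15 to -0.13 with siGRB2, and relative to all probes the keratin median with siGRB2 was thus similar.

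Normexp put 64.0% of all probes past 2-fold with siGRB2. KRT80 was then at -0.43 with siGRB2. Without 7 spots of the siGRB2 array whose local background was over 10 times the median, an alternative chosen after seeing the data, it was 4.0%, KRT80 was at 0.54, the siGRB2 keratin median was 0.072 with 0 probes past the limit, and the other keratin counts were 0 with Pre-miR-376c and 0 between the controls. Across the alternatives, 206 differences of single keratin probes stayed within the scanner error of the value reported, 54 moved further and 1 that was past 2-fold (KRT23, above) turned its sign. Part of the 206 was fixed beforehand. With 1 spot a probe, detected on all 4 arrays, inclusion of flagged spots could not change a value. Nor could stricter detection, whether by every spot or by all 4 arrays. The deposited values differed by a constant per array (-0.46 to -0.38), too alike to move a difference beyond the scanner error. A median shift moved 16 of 27 differences, quantile normalization 11 and normexp 10. With the other control 15 moved, 1 turned its sign and 2 stayed. Of those that moved further or turned, 16 changed sign: 6 with the other control, 5 with normexp, 4 with a median shift and 1 with quantile normalization. No paired analysis was possible because there was 1 array a condition, and for the same reason no array could be left out of a condition. KRT20 was limited by its signal over background, and the second KRT23 probe was close to that limit.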
